A study of Homo sapiens with 18 samples.

Results

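The nuclear-encoded subunits of the respiratory chain were followed in HCT116 cells, a line derived from a human colorectal carcinoma. Members were the protein-coding genes outside the mitochondrial chromosome whose symbols begin with NDUFA, NDUFB, NDUFC, NDUFS or NDUFV and a number, with UQCR, with COX and a number from 4 to 8, or with ATP5, together with SDHA, SDHB, SDHC and SDHD. The rule gave 87 of the 31004 genes in the count table. Of these, 81 were subunits in current nomenclature, 37 of complex I, 4 of complex II, 8 of complex III, 17 of complex IV and 15 of complex V. NDUFA4 and NDUFA4L2 were counted with complex IV. The other 6 members, ATP5S, ATP5SL, ATP5J2-PTCD1, ATP5EP2, ATP5L2 and UQCRHL, are not counted as subunits, being other proteins, a readthrough gene or gene copies.

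The respiratory chain sits in the inner mitochondrial membrane. Complex I (NADH dehydrogenase) and complex II (succinate dehydrogenase) pass electrons to ubiquinone, complex III passes them to cytochrome c, and complex IV (cytochrome c oxidase) passes them to oxygen. Complexes I, III and IV pump protons, and complex V (ATP synthase) uses the gradient to make ATP. Most subunits are encoded in the nucleus and imported, while a core set is encoded by mitochondrial DNA, so complexes I, III, IV and V are built from the products of both genomes.

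The 18 libraries formed 6 groups of 3 biological replicates. The cells carried a lentiviral construct, kept by puromycin selection, that was empty (Ctrl), expressed the long noncoding RNA CRLM1 (CRLM1) or served as its antisense control (Antisense), and each of these backgrounds received either an hnRNPK expression vector (hnRNPK) or its negative control (NC). hnRNPK, encoded by HNRNPK, is a protein that binds RNA and DNA. All lines were HCT116 derivatives, the stable lines were not described as separate clones, and a background therefore cannot be told apart from the cell population that was selected for it.

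The libraries held 19732681 to 27039520 counted reads, and the members took 0.80% to 1.04% of them. Values in CPM (counts scaled to a common library size) are given after scaling with the trimmed mean of M values (TMM) over all libraries. CRLM1 was at 587 to 608 CPM in CRLM1_NC and 580 to 658 CPM in CRLM1_hnRNPK, at 39.1 to 50.01 CPM in the Antisense groups, where its own reads and antisense reads cannot be told apart, and had no count in the Ctrl groups. HNRNPK was at 463, 471 and 480 CPM in Ctrl_NC against 617, 644 and 491 CPM in Ctrl_hnRNPK. It was at 461, 454 and 455 CPM in CRLM1_NC against 671, 713 and 571 CPM in CRLM1_hnRNPK, and at 432, 434 and 424 CPM in Antisense_NC against 540, 532 and 583 CPM in Antisense_hnRNPK. Replicate 3 of Ctrl_hnRNPK and replicate 3 of CRLM1_hnRNPK stood apart. Over 15563 genes they correlated at 0.984 to 0.986 and at 0.980 with the NC libraries of their own background, but only at 0.960 to 0.965 and at 0.956 to 0.959 with their own replicates. The study left these libraries out of its comparisons, so the hnRNPK results of these backgrounds are given with and without them. Of the epithelial markers, EPCAM ranged from 251.5 CPM and KRT8 from 861 CPM upwards, and of the 5 markers tested 4 were higher in CRLM1_NC (16.9% of all genes tested were), and 4 were lower and 1 higher in Antisense_NC (32.2% and 34.4% of all genes), both against Ctrl_NC. With hnRNPK in the Antisense background 4 were lower and 1 higher (30.5% and 33.4% of all genes). Without the third library 4 were lower and 1 higher in Ctrl_hnRNPK (29.9% and 29.6% of all genes). In CRLM1_hnRNPK 3 were lower and 1 higher (29.1% and 29.5%), and with all libraries none passed in either background. PTPRC, PECAM1 and ALB, which mark leukocytes, endothelium and hepatocytes, were at 0.147 CPM or less, DES (muscle) was at 0.421 to 2.02 CPM, and COL1A1 (fibroblasts) was at 11.2 to 32.8 CPM. COL1A1 was higher in CRLM1_NC (log2 fold change 0.26, adjusted p = 0.0183) and in Antisense_NC (0.42, adjusted p = 4.02e-05) than in Ctrl_NC, and lower in Antisense_hnRNPK than in Antisense_NC (−1.26, adjusted p = 6e-07). Without the third library it was also lower in CRLM1_hnRNPK (−0.44, adjusted p = 0.000407). The part of these markers in the results on the members was not tested.

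The promoters of 5 members on which the later results turn are shown to give the sequence beside the measurements: NDUFA1, NDUFA2 and ATP5G1, which had the lowest fold changes in Antisense_NC, NDUFS6, among the 3 highest in CRLM1_NC against Antisense_NC, and NDUFS1, the highest with hnRNPK in the Antisense background. Each is the stretch of 250 bases before the RefSeq start in GRCh38.p14, 5′ to 3′ on the strand of the gene. Capitals mark a match to CCGGAAGT (the core bound by ETS factors such as GABP) or GCGCATGC (the site of NRF1), on either strand.
NDUFA1, chrX:119871582-119871831, plus strand: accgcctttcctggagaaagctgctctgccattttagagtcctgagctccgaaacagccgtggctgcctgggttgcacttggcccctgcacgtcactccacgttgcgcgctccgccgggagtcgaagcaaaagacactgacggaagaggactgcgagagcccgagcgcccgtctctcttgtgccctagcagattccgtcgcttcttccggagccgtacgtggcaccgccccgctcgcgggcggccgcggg
NDUFA2, chr5:140647631-140647880, minus strand: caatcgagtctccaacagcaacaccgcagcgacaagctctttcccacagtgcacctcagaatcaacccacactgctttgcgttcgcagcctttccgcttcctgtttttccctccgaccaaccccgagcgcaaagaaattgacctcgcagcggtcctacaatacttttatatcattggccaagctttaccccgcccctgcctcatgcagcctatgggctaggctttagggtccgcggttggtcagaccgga
ATP5G1 (listed as ATP5MC1), chr17:48892537-48892786, plus strand: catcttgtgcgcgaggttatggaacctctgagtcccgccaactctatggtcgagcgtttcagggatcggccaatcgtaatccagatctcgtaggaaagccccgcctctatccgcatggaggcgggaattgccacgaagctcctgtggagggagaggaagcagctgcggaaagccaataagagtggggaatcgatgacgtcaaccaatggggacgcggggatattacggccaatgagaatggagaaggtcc
NDUFS6, chr5:1801157-1801406, plus strand: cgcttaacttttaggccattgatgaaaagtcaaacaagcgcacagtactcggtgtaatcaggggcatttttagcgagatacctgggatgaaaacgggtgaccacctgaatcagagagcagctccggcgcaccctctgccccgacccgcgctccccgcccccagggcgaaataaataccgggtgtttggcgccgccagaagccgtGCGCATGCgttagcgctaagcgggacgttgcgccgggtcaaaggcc
NDUFS1, chr2:206159445-206159694, minus strand: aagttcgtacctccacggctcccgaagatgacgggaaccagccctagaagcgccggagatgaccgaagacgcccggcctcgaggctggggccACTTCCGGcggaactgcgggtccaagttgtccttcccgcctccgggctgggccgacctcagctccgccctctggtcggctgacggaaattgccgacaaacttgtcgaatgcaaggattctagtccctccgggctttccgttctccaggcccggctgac
RefSeq promoters were found for 65 of the 87 members, of which 64 were subunits. In windows of 300 bases (250 before and 50 after the start), CCGGAAGT was found in 9 of the 64 subunit promoters (14.1%) and in 4.14% of all 35116 promoters. GCGCATGC was found in 13 (20.3%) against 3.05%, and AAGATGGC, the core of the YY1 site, in 11 (17.2%) against 2.89%. At least one of these motifs, searched on both strands, was in 27 of the 64 (42.2%) against 9.36% of all promoters. None of them was in the windows of NDUFA1, NDUFA2 or ATP5G1, which says only that these exact letters are not there.

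Levels between genes were compared as the deposited FPKM, which divide reads by a length for each gene. The median over the libraries was highest for COX8A (529 FPKM), a small complex IV subunit, followed by ATP5B (406 FPKM), the catalytic beta subunit of ATP synthase, COX4I1 (305 FPKM), NDUFS5 (274 FPKM), COX6A1 (240 FPKM) and COX5B (213 FPKM). The subunits of one complex were thus listed at very unequal levels. In complex II, SDHB was at 62.9 FPKM, SDHA at 48.0 FPKM, SDHD at 15.1 FPKM and SDHC at 5.70 FPKM, although the assembled enzyme holds a single copy of each. The counts had another order, with Ctrl_NC means of 174 CPM for SDHA, 114.5 for SDHC, 99.7 for SDHB and 50.1 for SDHD. The median annotated transcript of SDHC has 611 bases and that of SDHB 763.5 bases. The part of the length divisor in the listed levels was not tested. In complex I, NDUFV1, the flavin-binding subunit that accepts electrons from NADH, was at 88.8 FPKM and NDUFS1, the largest subunit, at 2.54 FPKM. Apart from a second NDUFA7 entry with a median of 0 FPKM, the lowest complex I values were those of NDUFA11 (0.51 FPKM), NDUFC2 (1.23 FPKM) and NDUFA9 (1.75 FPKM). Their exons overlap other annotated genes over 12.1%, 21.0% and 10.6% of their bases, but COX8A, the highest member, overlaps over 35.4% and NDUFA5, at 2.52 FPKM, over none, and the part of overlap in the listed levels was not tested. UQCRC1, a core protein of complex III, was at 156 FPKM, and UQCRFS1, its iron-sulfur protein, at 6.71 FPKM. ATP5A1, the alpha subunit of ATP synthase, was at 42.0 FPKM and COX5A at 79.5 FPKM.

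**Figure D1:**
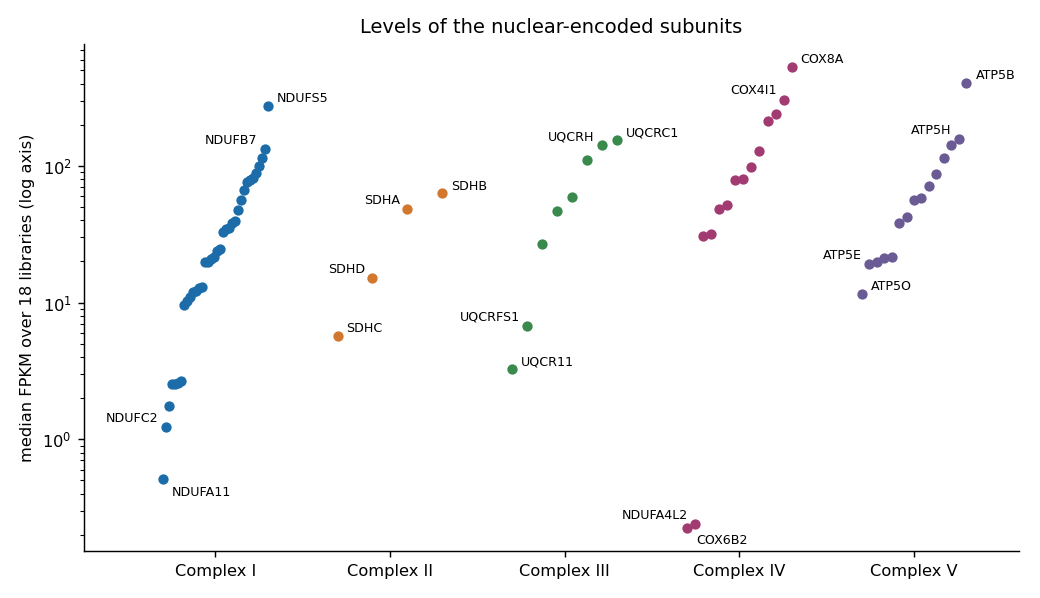
Median FPKM over the 18 libraries for each nuclear-encoded subunit with a median above 0, on a log axis, with 1 point for each gene, grouped by complex and sorted within it. The highest and lowest subunits of each complex are named, and COX8A (529 FPKM) and ATP5B (406 FPKM) lie at the top.

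Of the paralogs with tissue-restricted partners, the widely expressed form carried the reads. COX4I2, COX7A1 and COX8C, the lung, muscle and testis forms, had at most 1, 3 and 1 reads in any library, while COX4I1 and COX8A were among the highest members. COX6B2, a testis form, had 11 to 36 reads and was at 0.225 FPKM, against 128 FPKM for COX6B1. COX7A2 was at 98.4 FPKM and COX7A2L, a supercomplex factor, at 31.8 FPKM. The 3 genes ATP5G1, ATP5G2 and ATP5G3 encode the same mature c subunit of the ATP synthase ring and were at 87.5, 70.8 and 21.5 FPKM. NDUFA7 was listed under 2 identifiers. The first had at most 1 read and is the one named NDUFA7 in the reference annotation. The second carried the reads, has no gene name there and is overlapped over 91.7% of its exon bases, most of all by the first. The level of NDUFA7 is therefore uncertain.

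The first comparisons asked what CRLM1 and the antisense construct did without the hnRNPK vector. A low-count filter left 79 members in the CRLM1_NC against Ctrl_NC comparison and 80 in each comparison with an Antisense group. The 7 members that failed everywhere were COX4I2, COX7A1, COX8C, ATP5EP2, ATP5L2, UQCRHL and an NDUFA7 entry, and NDUFA4L2, whose level was highest in the Antisense libraries, did not pass in the pairwise comparisons of the Ctrl and CRLM1 groups.

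In Antisense_NC, members of all 5 complexes were lower than in Ctrl_NC. Of the 80 members tested, 65 were lower and 2 higher at an adjusted p of at most 0.05, against 32.2% lower and 34.4% higher among all 14389 genes tested. The median log2 fold change was −0.37 over the members and 0.00 over all genes. On the deposited FPKM, with a pseudocount of 0.1, the split was 39 lower and 7 higher (19.6% and 46.5% of all genes), with a member median of −0.14 beside a median of 0.21 over all genes. In a single fit of all 18 libraries it was 28 lower and 2 higher (14.2% and 18.3% of all genes). In these bulk samples, less RNA in every cell and fewer cells with that RNA cannot be told apart. By complex, 26 of 36 tested subunits of complex I, 4 of 4 of complex II, 6 of 8 of complex III, 12 of 14 of complex IV and 14 of 15 of complex V were lower, with medians of −0.33, −0.45, −0.27, −0.37 and −0.49. At least 2-fold calls, which made up 14.1% of all genes in either direction, were reached by NDUFA1, NDUFA2 and ATP5G1 downwards and by NDUFA4L2 upwards.

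NDUFA1, at chrX:119871832-119876662 (GRCh38), encodes a small membrane subunit of complex I that is needed for its assembly. It was at 79.3, 81.3 and 82.2 CPM in Ctrl_NC, at 49.4, 51.8 and 66.3 CPM in CRLM1_NC and at 28.7, 27.5 and 34.6 CPM in Antisense_NC. The 3 groups did not overlap, and the CRLM1 libraries lay between the other two. NDUFA1, NDUFA2 and ATP5G1 were picked by their fold changes in comparisons of these groups. The lack of overlap between their libraries is therefore only a description. On the log2 scale the fold change was −1.47 ± 0.07 (SE, adjusted p = 6.98e-21) for Antisense_NC and −0.56 ± 0.08 (adjusted p = 1.05e-05) for CRLM1_NC, both against Ctrl_NC, whose libraries the comparisons share. It was 0.92 ± 0.11 for CRLM1_NC against Antisense_NC (adjusted p = 3.19e-06).

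NDUFA2, at chr5:140638740-140647771, encodes an accessory subunit of the matrix arm of complex I, and 12.1% of its exon bases overlap TMCO6 on the other strand. It was at 62.1, 64.6 and 62.1 CPM in Ctrl_NC, at 40.1, 40.1 and 44.7 CPM in CRLM1_NC and at 26.4, 24.1 and 30.6 CPM in Antisense_NC. Again no library of one group reached the range of another. The log2 fold change against Ctrl_NC was −0.61 ± 0.06 in CRLM1_NC (adjusted p = 5.12e-11) and −1.27 ± 0.07 in Antisense_NC (adjusted p = 3.91e-18).

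ATP5G1, at chr17:48892765-48895871, was at 123, 123 and 124 CPM in Ctrl_NC, at 89.5, 86.7 and 94.5 CPM in CRLM1_NC and at 60.8, 61.5 and 67.2 CPM in Antisense_NC. The groups were well separated, and the log2 fold change in Antisense_NC was −1.02 ± 0.05 (adjusted p = 4.46e-20). The other c subunit genes had smaller values. ATP5G3 was at 195, 204 and 198 CPM in Ctrl_NC and at 123, 117 and 132 CPM in Antisense_NC, a log2 fold change of −0.73. ATP5G2 was at 236, 232 and 235 CPM against 214, 215 and 210 CPM, a log2 fold change of −0.18. All 3 genes fell past the threshold, but whether they fell unequally was not tested.

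**Figure D2:**
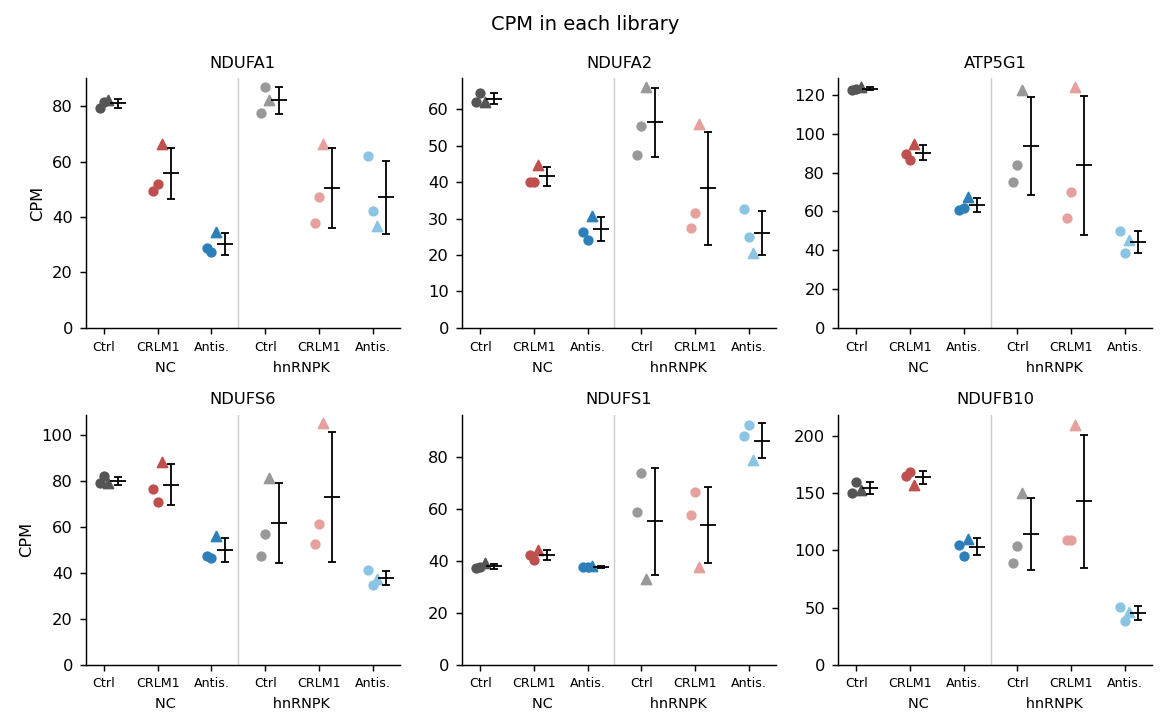
CPM of NDUFA1, NDUFA2, ATP5G1, NDUFS6, NDUFS1 and NDUFB10 in each library of the 6 groups, with replicates 1 and 2 as circles, replicate 3 as a triangle, and the mean and SD of the 3 replicates as a bar beside them. In the NC groups NDUFA1, NDUFA2 and ATP5G1 descend from Ctrl to CRLM1 to Antisense, and replicate 3 of Ctrl_hnRNPK and of CRLM1_hnRNPK lies apart from the other 2 in most panels.

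NDUFA4L2, a hypoxia-inducible paralog of NDUFA4, had only 1 to 29 reads per library and was at 0.055, 0.280 and 0.357 CPM in Ctrl_NC and at 0.603, 1.18 and 0.563 CPM in Antisense_NC. Since it passed the low-count filter through the Antisense libraries, its call (log2 fold change 1.64) is only a description, and it was singled out after its values were seen. Its widely expressed counterpart NDUFA4 moved in the opposite direction, with a log2 fold change of −0.56.

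In CRLM1_NC the differences from Ctrl_NC were smaller. Of the 79 members tested, 41 were lower and 2 higher, against 17.4% lower and 16.9% higher among all 14459 genes, with a median of −0.13 beside 0.01 over all genes. On the FPKM scale the split was 17 lower and 8 higher (10.3% and 20.2% of all genes), and in a single fit of all 18 libraries no member passed, as 0.313% of all genes did downwards and 0.338% upwards. No member reached a 2-fold call, which 1.58% of all genes did. By complex, 15 of 36 tested subunits of complex I, 2 of 4 of complex II, 4 of 8 of complex III, 7 of 13 of complex IV and 11 of 15 of complex V were lower. NDUFA11, a membrane subunit of complex I with few reads, had the lowest value among the subunits. It was at 4.46, 4.92 and 4.28 CPM in Ctrl_NC and at 2.92, 2.68 and 3.16 CPM in CRLM1_NC, with a log2 fold change of −0.66 ± 0.20 (adjusted p = 0.00807). SDHD, a membrane anchor of complex II, was at 51.7, 50.7 and 48.0 CPM against 36.0, 35.8 and 36.8 CPM, and ATP5J2, a subunit of the membrane part of ATP synthase, had a log2 fold change of −0.50. COX7B and NDUFS5 were the members that rose. COX7B, at 96.4, 98.1 and 89.2 CPM in Ctrl_NC and 110, 106 and 103 CPM in CRLM1_NC, had a log2 fold change of 0.16 ± 0.05 (adjusted p = 0.00695), and NDUFS5 one of 0.12 ± 0.04 (adjusted p = 0.0176). NDUFS5 did not pass when CRLM1_NC replicate 1, Ctrl_NC replicate 1 or Ctrl_NC replicate 2 was left out, nor COX7B without Ctrl_NC replicate 3.

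**Figure D3:**
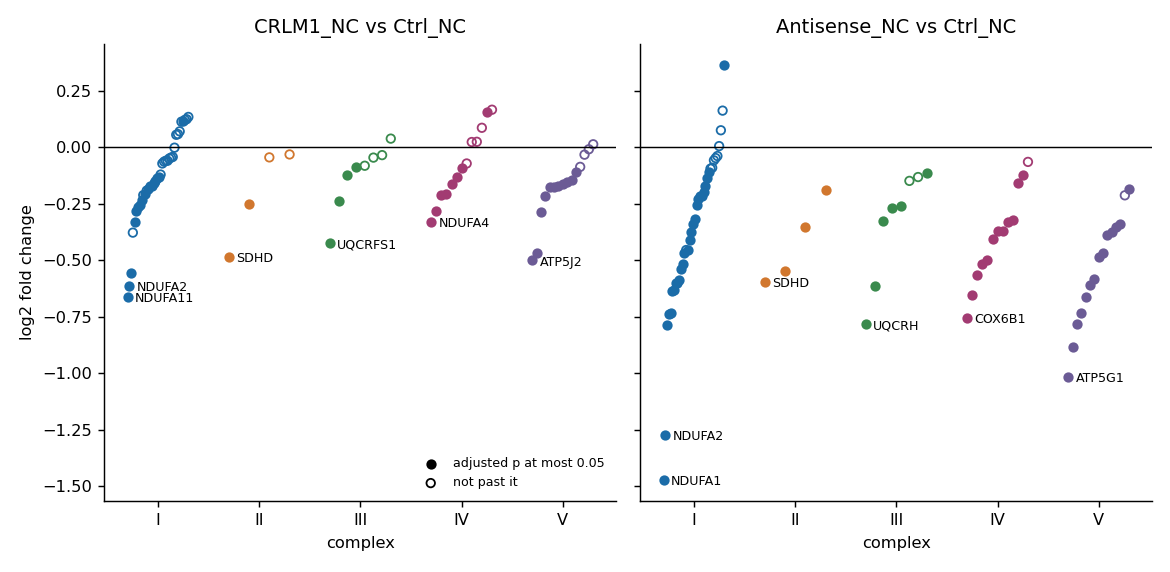
Log2 fold change of each tested nuclear-encoded subunit (NDUFA4L2 left out) against Ctrl_NC, in CRLM1_NC on the left and in Antisense_NC on the right, by complex and sorted within it. Filled points passed an adjusted p of at most 0.05 and open points did not, and most points lie below 0, down to −0.66 in CRLM1_NC and −1.47 in Antisense_NC.

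Between the 2 noncoding constructs, most members were higher with CRLM1. Of 80 tested, 56 were higher and 3 lower in CRLM1_NC than in Antisense_NC, against 26.9% higher and 29.5% lower among all 14364 genes, and none reached 2-fold upwards. At least 2-fold calls made up 7.18% of all genes, and NDUFA4L2 was the only member among them (log2 fold change −1.09). It has few reads and passed the low-count filter through the Antisense libraries, where it is high, so its call is no more than a description here too. On the FPKM scale the split was 32 higher and 7 lower (14.8% and 39.4% of all genes), and in the single fit 6 higher and none lower (6.39% and 8.65%). The highest values after NDUFA1 were those of NDUFB10 and NDUFS6. NDUFB10, a membrane-arm subunit of complex I, was at 166, 169 and 157 CPM in CRLM1_NC and at 105, 95.4 and 110 CPM in Antisense_NC (log2 fold change 0.70 ± 0.05, adjusted p = 2.6e-15). NDUFS6, a zinc-binding subunit, was at 76.6, 70.8 and 88.2 CPM against 47.4, 46.3 and 56.1 CPM (0.69 ± 0.07, adjusted p = 1.46e-08). Neither gene had passed in CRLM1_NC against Ctrl_NC, where their log2 fold changes were 0.07 and −0.05. NDUFA5 was lower at a log2 fold change of −0.41 ± 0.10 (adjusted p = 0.00088). It did not pass in the single fit, nor (−0.16) once a trend on GC content and transcript length was removed.

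The order Ctrl_NC above CRLM1_NC above Antisense_NC, with no overlap between the libraries of any 2 groups, was met by 26 of 80 members (32.5%) and by 8.49% of the 15563 genes. Besides NDUFA1, NDUFA2 and ATP5G1 these included SDHC, SDHD, UQCRC1, UQCRQ, COX5A, COX5B, COX6A1, COX6B1, COX7C, ATP5B, ATP5F1 and ATP5L.

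Summed over the 81 subunits, the level was 10492 ± 75 CPM in Ctrl_NC, 9806 ± 275 CPM in CRLM1_NC and 8230 ± 294 CPM in Antisense_NC (SD, n = 3). The sums of the 13 subunits encoded by the mitochondrial genome ran in the opposite order, at 26230 ± 921, 30828 ± 842 and 38170 ± 2141 CPM. Their ratio to the nuclear sum was 2.51, 2.41 and 2.58 in the Ctrl_NC libraries, 3.22, 3.18 and 3.04 in CRLM1_NC and 4.69, 5.02 and 4.22 in Antisense_NC, with no overlap between groups. Single mitochondrial genes were also tested against Ctrl_NC. For CRLM1_NC, 10 of 13 were higher (16.9% of all genes) and 1 was lower (17.4%). For Antisense_NC, 12 were higher (34.4% of all genes) and 1 was lower (32.2%). MT-ND2, a complex I subunit, had the highest value in Antisense_NC (log2 fold change 1.94), and MT-CYB, the cytochrome b of complex III, was the gene that was lower in both (−0.12 and −0.66). Leaving all mitochondrial-genome genes out of the table left 41 lower and 2 higher members in CRLM1_NC and 65 lower and 2 higher in Antisense_NC. These counts equal those with the mitochondrial-genome genes kept, and the shares of all genes are not given for this fit.

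**Figure D4:**
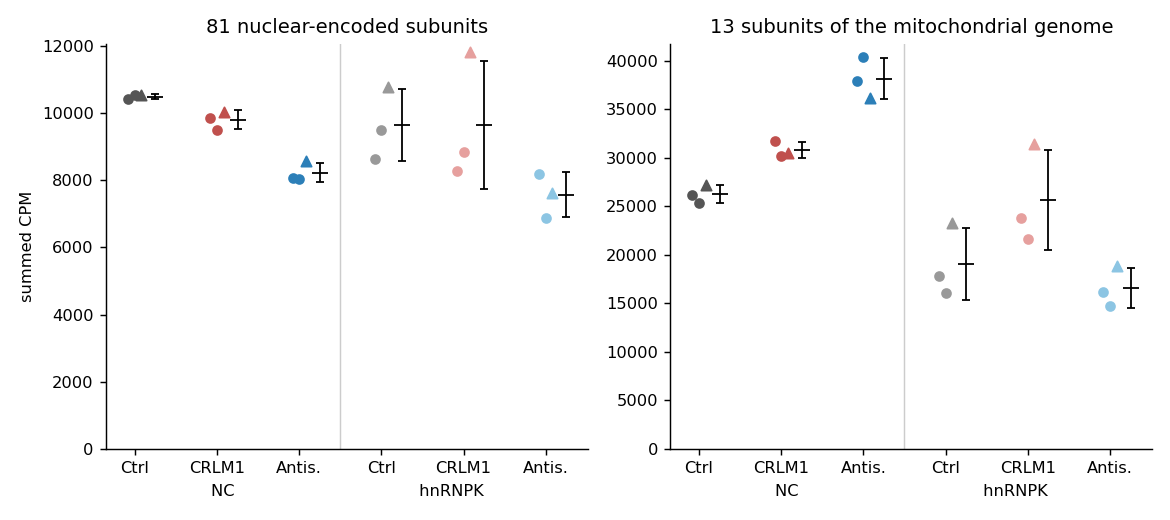
Summed CPM per library of the 81 nuclear-encoded subunits (left) and of the 13 subunits of the mitochondrial genome (right), with replicates 1 and 2 as circles, replicate 3 as a triangle, and mean and SD (n = 3) as bars. In the NC groups the nuclear sums descend from 10492 to 8230 CPM while the mitochondrial sums ascend from 26230 to 38170 CPM.

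Other genes of the pathway were counted in the same fits. Of 6 chain genes that the symbol rule misses (NDUFAB1, CYC1, USMG5, C14orf2, CYCS and ATPIF1), 5 were lower and none higher in Antisense_NC, where 32.2% of all genes were lower and 34.4% higher. Of 40 assembly factors, which help to build the complexes without being part of them, 17 were lower and 8 higher in Antisense_NC, and 12 lower and 3 higher in CRLM1_NC, where the shares of all genes were 17.4% and 16.9%. Of 11 tested transcription regulators of the chain genes, 8 were higher and 1 lower in Antisense_NC. GABPB1 (log2 fold change 0.95), PPRC1 (0.73), NRF1 (0.70) and TFAM (0.58), the factor that packages and transcribes mitochondrial DNA, were among those higher, and ESRRA, an orphan nuclear receptor, was lower (−0.62). In CRLM1_NC, 3 of the 11 regulators were higher and 2 lower, with a median log2 fold change of 0.11. ESRRA was among the lower (−0.43, adjusted p = 5.07e-08).

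The next comparisons asked what the hnRNPK vector did in each background. In the Antisense background, members moved in both directions. Of 80 tested, 26 were higher and 24 lower in Antisense_hnRNPK than in Antisense_NC, against 33.4% higher and 30.5% lower among all 14501 genes, so the members were not called more often than other genes in either direction. The median was −0.06 beside 0.04 over all genes. On the FPKM scale, where the median of all genes was 0.25, the split was 34 higher and 17 lower (42.7% and 20.3% of all genes) and the member median 0.19. At least 2-fold calls made up 13.4% of all genes and were reached by NDUFS1 and ATP5S upwards and by NDUFB10 and NDUFB11 downwards.

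NDUFS1, the iron-sulfur subunit at chr2:206114817-206159509, was at 37.5, 37.4 and 38.0 CPM in Antisense_NC and at 87.7, 92.0 and 78.7 CPM in Antisense_hnRNPK (log2 fold change 1.19 ± 0.09, adjusted p = 1.28e-07). Every hnRNPK library lay above every NC library. ATP5F1, the b subunit of the ATP synthase stalk, rose from 68.7, 68.8 and 75.5 CPM to 146, 117 and 116 CPM (0.83 ± 0.10, adjusted p = 4.8e-06). NDUFS4, an accessory subunit of complex I mutated in Leigh syndrome, rose from 31.7, 30.6 and 35.5 CPM to 55.8, 50.1 and 59.8 CPM (0.76 ± 0.09, adjusted p = 5.81e-06). In the other direction, NDUFB10 fell from 105, 95.4 and 110 CPM to 50.1, 38.4 and 46.4 CPM (−1.21 ± 0.10, adjusted p = 2.39e-07). NDUFB11, an X-linked membrane subunit, fell from 141, 138 and 148 CPM to 67.6, 60.5 and 75.6 CPM (−1.08 ± 0.08, adjusted p = 1.92e-07). COX8A, whose exons overlap another gene model over 35.4% of their bases, fell from 357, 345 and 376 CPM to 190, 175 and 183 CPM (−0.98 ± 0.08, adjusted p = 1.78e-07). The 6 genes were picked by their fold changes in this comparison, so the lack of overlap between their NC and hnRNPK libraries is only a description.

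In the Ctrl and CRLM1 backgrounds no member passed with all libraries, and neither did any gene (0.00% of 14607 and 0.00% of 14394 with edgeR, and no member with DESeq2). At an unadjusted p under 0.05 there were 3 and 6 of 79 members, against 15.4% and 9.25% of all genes. Without the third hnRNPK library, 20 of 79 members were higher and 37 lower in Ctrl_hnRNPK, against 29.6% higher and 29.9% lower among all 15004 genes. In CRLM1_hnRNPK, 21 of 79 were higher and 36 lower, against 29.5% and 29.1% of 14685 genes. The median over the members was −0.22 and −0.20, beside 0.03 and 0.00 over all genes.

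The named members of these backgrounds were taken from the fits without the third library. They were picked by their fold changes there. How their first 2 hnRNPK libraries lie against the NC range is therefore only a description. NDUFA5, an accessory subunit of complex I, was at 17.8, 18.3 and 17.6 CPM in Ctrl_NC and at 30.2, 35.9 and 20.4 CPM in Ctrl_hnRNPK, where the value of the third library is the lowest (log2 fold change 0.91 ± 0.11 without it, adjusted p = 8.87e-07). In CRLM1 it was at 14.1, 13.9 and 17.6 CPM and at 24.4, 26.6 and 17.3 CPM, with the third hnRNPK library inside the NC range (0.80 ± 0.11, adjusted p = 6.13e-07). NDUFS1 was at 37.0, 37.6 and 39.0 CPM in Ctrl_NC and at 58.7, 73.6 and 32.8 CPM in Ctrl_hnRNPK, and at 42.0, 40.2 and 44 CPM in CRLM1_NC and 57.4, 66.3 and 37.5 CPM in CRLM1_hnRNPK. In both backgrounds the first 2 hnRNPK libraries lay above the NC range and the third lay below it (0.83 ± 0.09 and 0.61 ± 0.08 without it, adjusted p = 5.82e-07 and 8.1e-08). UQCRB, the ubiquinone-binding protein of complex III, had a log2 fold change of 0.76 ± 0.06 in Ctrl (adjusted p = 1.6e-08), and NDUFS4 one of 0.62 ± 0.08 in CRLM1 (adjusted p = 9.91e-08). With all libraries none of these passed, and the log2 fold changes were 0.67 and 0.63 for NDUFA5 and 0.52 and 0.41 for NDUFS1 in Ctrl and CRLM1, 0.52 for UQCRB in Ctrl and 0.48 for NDUFS4 in CRLM1.

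ATP5D, the delta subunit of the ATP synthase rotor at chr19:1241746-1244825, was the lowest of the members that passed in both backgrounds. It was at 184, 173 and 182 CPM in Ctrl_NC and at 92.7, 98.4 and 231 CPM in Ctrl_hnRNPK, and at 160, 154 and 168 CPM in CRLM1_NC and 83.0, 98.8 and 225 CPM in CRLM1_hnRNPK. The first 2 hnRNPK libraries lay below the NC range and the third above it, in either background (−0.89 ± 0.06 and −0.77 ± 0.07 without it, adjusted p = 5.67e-09 and 3.92e-11). NDUFS8, an iron-sulfur subunit of complex I, showed the same arrangement, at 85.4, 89.5 and 181 CPM in Ctrl_hnRNPK against 154, 150 and 161 CPM in Ctrl_NC (−0.80 ± 0.07, adjusted p = 2.14e-08) and at 81.1, 83.9 and 184 CPM in CRLM1_hnRNPK against 136, 135 and 135 CPM (−0.67 ± 0.06, adjusted p = 4.9e-11). Both genes were picked by their fold changes without the third library, so where their first 2 hnRNPK libraries lie is only a description. NDUFB11 had a log2 fold change of −0.87 ± 0.08 in Ctrl (adjusted p = 4.15e-08), and NDUFA3, a small membrane subunit of complex I, one of −0.61 ± 0.08 in CRLM1 (adjusted p = 7.33e-08). With all libraries none of these passed, and the log2 fold changes were −0.38 and −0.21 for ATP5D and −0.41 and −0.19 for NDUFS8 in Ctrl and CRLM1, −0.47 for NDUFB11 in Ctrl and −0.21 for NDUFA3 in CRLM1.

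With hnRNPK, the direction of a member moved with the base composition of its transcript. GC content was taken as the median over the annotated transcripts of each gene. It ran against the log2 fold change with a Spearman coefficient of −0.75 over 80 members in Antisense. The coefficient was −0.83 and −0.79 over 79 members in Ctrl and CRLM1 without the third library. With all libraries it was −0.81 in Ctrl and −0.65 in CRLM1. Over all genes with a GC value it was −0.72 in Antisense, −0.75 and −0.77 in Ctrl and CRLM1 without the third library, and −0.71 and −0.64 with it. These genes were measured in the same libraries and the coefficients are descriptions. Members higher with hnRNPK had a median GC content of 43.9% in Antisense, 43.3% in Ctrl and 43.5% in CRLM1, and members lower had one of 58.3%, 54.5% and 54.0%. With a smooth trend on GC content and length removed from each library, the split in Antisense was 14 higher and 29 lower, against 18.5% and 20.3% of all genes. With all libraries and the trend removed, no member passed in Ctrl or CRLM1. Removing it after leaving out the third hnRNPK library, an analysis added after seeing the data, gave 3 higher and 35 lower of 79 in Ctrl (11.5% and 13.4% of all genes) and 5 higher and 29 lower of 79 in CRLM1 (14.9% and 11.5%). In Antisense it gave 13 higher and 33 lower of 80 (18.5% and 25.7%). NDUFS1 remained past the threshold in Ctrl at a log2 fold change of 0.37, while NDUFA5 and UQCRB no longer passed there, nor did any named member in CRLM1. NDUFS4 did not pass in Antisense with the trend removed (0.23). The NC comparisons carried a weaker relation. For CRLM1_NC and Antisense_NC against Ctrl_NC and for CRLM1_NC against Antisense_NC the coefficient was −0.04, −0.08 and 0.01 over the members and −0.17, −0.30 and 0.29 over all genes. Removing the trend left 38 members lower and 4 higher in CRLM1_NC (16.9% and 16.7% of all genes) and 61 lower and 3 higher in Antisense_NC (31.5% and 32.5%). The part of library preparation in the GC relation was not tested.

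**Figure D5:**
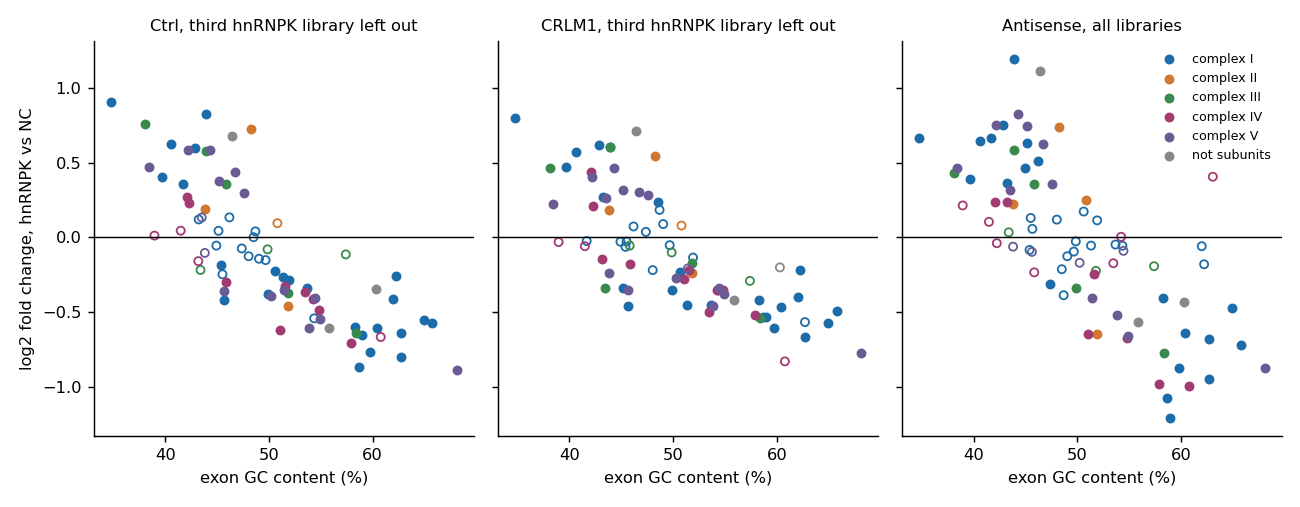
Log2 fold change of hnRNPK against NC for each tested member, plotted against the median GC content of its annotated transcripts. The Ctrl and CRLM1 backgrounds are shown without the third hnRNPK library and the Antisense background with all libraries. Colours give the complex, filled points passed an adjusted p of at most 0.05, and in each panel most called members of low GC content lie above 0 and most of high GC content below it.

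Within single complexes subunits moved in both directions. In complex II, SDHD was at 33.3, 35.2 and 34.4 CPM in Antisense_NC and at 66.3, 49.4 and 57.0 CPM in Antisense_hnRNPK, whereas SDHA, the flavoprotein, fell from 141, 137 and 145 CPM to 95.3, 82.1 and 94.5 CPM. The log2 fold changes were 0.74 and −0.65, and both passed. In complex V, ATP5F1, ATP5C1 and ATP5H were higher (0.83, 0.75 and 0.74), and ATP5D and ATP5G2 lower (−0.88 and −0.66). In complex III, UQCRC2 was higher (0.59) and UQCRC1 lower (−0.77), although both are core proteins of the same enzyme.

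Subunits of the mitochondrial genome were lower with hnRNPK in Antisense, where 12 of 13 passed and none was higher, with a median log2 fold change of −1.16. In Ctrl and CRLM1 the call rested on leaving out the third library. Without it 13 of 13 were lower in Ctrl (median −0.80) and in CRLM1 (median −0.42), and with it none passed in either, with medians of −0.52 and −0.24 and MT-CO2 at 0.06 in CRLM1. Their ratio to the nuclear subunits was 1.97, 2.14 and 2.47 in the Antisense_hnRNPK libraries, below each of the 3 Antisense_NC libraries. In CRLM1_hnRNPK, at 2.87, 2.45 and 2.66, all 3 lay below the CRLM1_NC range, and in Ctrl_hnRNPK, at 2.06, 1.69 and 2.16, they lay below the Ctrl_NC range. Of the 40 assembly factors 24 were higher and 10 lower in Antisense, where 33.4% of all genes were higher and 30.5% lower. Without the third library 20 were higher and 13 lower in Ctrl (29.6% and 29.9% of all genes) and 15 and 11 in CRLM1 (29.5% and 29.1%), and with it none passed in either background.

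Whether the hnRNPK effect differed between backgrounds was tested with an interaction term. With all libraries no member passed in any of the 3 tests, against 0.00% of all genes for CRLM1 minus Ctrl and for Antisense minus Ctrl and 1.12% for CRLM1 minus Antisense. With the third hnRNPK libraries of both backgrounds left out, 3 members passed for CRLM1 minus Ctrl (3.45% of all genes), 14 for Antisense minus Ctrl (16.0%) and 30 for CRLM1 minus Antisense (26.5%). The 3 for CRLM1 minus Ctrl were COX5A (0.37), NDUFB11 (0.36) and UQCRH (−0.39), chosen for naming after their values were seen. For CRLM1 minus Antisense, NDUFA1 had the lowest value (−1.12 ± 0.28, adjusted p = 0.015). It was at 62.1, 42.1 and 36.9 CPM in Antisense_hnRNPK, all above the Antisense_NC range. In CRLM1_hnRNPK it was at 37.8, 47.3 and 66.2 CPM, with the first 2 libraries below the CRLM1_NC range and the third inside it. The third library of each was left out of this fit. Antisense_hnRNPK replicate 3 had not stood apart, correlating at 0.987 to 0.991 with its own replicates. With all libraries NDUFA1 did not pass (−0.74 ± 0.32, adjusted p = 0.201).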

How the data were processed

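The series holds RNA-seq of 18 HCT116 libraries in 6 groups of 3. The authors trimmed reads with FASTX-Toolkit, aligned them with TopHat2 to GRCh38 with Gencode genes and deposited raw read counts and FPKM per gene from uniquely mapped reads. The strand setting of the counting is not given in the sources used here. Members and gene lists were chosen with earlier results of these data known.

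Counts were tested with edgeR 4.0.16 in R 4.3.3 (TMM, low-count filter, quasi-likelihood F-test, two-sided, Benjamini-Hochberg over all genes, adjusted p at most 0.05, and a fold of 2), with libraries of the compared groups only. Named members are, per comparison, the subunits past the threshold with the 3 highest or 3 lowest log2 fold changes and a mean of at least 1 CPM, taken without the third hnRNPK library where none passed, together with paralogs and core subunits as levels. Others singled out after their values were seen are SDHD, ATP5J2, NDUFA4L2 and the split subunits of complexes II, III and V. Alternatives were DESeq2 1.42.0, limma 3.58.1 on log2(FPKM + 0.1) and log2(FPKM + 1), RLE factors, no filter, a single fit, a replicate block, no mitochondrial-genome genes, a GC and length trend removed, and each library left out. The code was tested on simulated data. One item that the naming rule picked is not reported here.

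Depth was 19732681 to 27039520 counts, and 3 counts corresponded to 0.0972 to 0.165 CPM. No library pair agreed within counting noise (chi-square per degree of freedom 2.91 or more). The labels call the replicates biological without naming separate cultures, so p-values measure the spread between these libraries.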

Additional observations from a re-analysis of the deposited data

Results flagged for a closer look

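With the third hnRNPK libraries left out of both backgrounds, the hnRNPK effect on 3 of 80 members differed between CRLM1 and Ctrl (3.45% of all genes), on 30 between CRLM1 and Antisense (26.5%) and on 14 between Antisense and Ctrl (16.0%), each by a test of the difference itself (edgeR, adjusted p at most 0.05). The first and the last of these counts lie near the share of all genes. With all libraries no member passed in these tests.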

How the results depend on the processing

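Members past the threshold were 43 in CRLM1_NC against Ctrl_NC, 67 in Antisense_NC against Ctrl_NC, 59 in CRLM1_NC against Antisense_NC and 50 in Antisense_hnRNPK against Antisense_NC. On log2(FPKM + 0.1) and log2(FPKM + 1) the first became 25 and 24 and the third 39 and 39, and in a single fit of all libraries the first 3 became 0, 30 and 6. In the other alternatives for these 4 comparisons the total was within 1.5 times. Leaving out 1 library gave 31 to 46, 61 to 67, 51 to 64 and 43 to 52. For Ctrl_hnRNPK and CRLM1_hnRNPK, with 0 members, the range was 0 to 57 in both, 57 without the third hnRNPK library, and 38 and 34 without it and with the GC and length trend removed (added after seeing the data). For the hnRNPK effect CRLM1 minus Antisense, with 0 members, DESeq2 gave 4, the GC and length trend removed 8, FPKM 1 and 4, no filter 3, leaving out 1 library 0 to 18, and the third hnRNPK libraries left out 30. For Antisense minus Ctrl, with 0, no filter gave 1, leaving out 1 library 0 to 5, and the third hnRNPK libraries left out 14. For CRLM1 minus Ctrl, with 0, leaving out 1 library gave 0 to 0, and the third hnRNPK libraries left out 3. The share of all genes in each alternative is not given beside these totals, so they show only how the member counts moved. The cause of these shifts was not tested.

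Of 498 alternative values of the 32 fold changes that the naming rule picked, 464 kept direction and side of the threshold. With all CRLM1_hnRNPK libraries, ATP5D reached 0.01 and NDUFS8 0 with the GC and length trend removed, and ATP5D ranged from -0.77 to 0.02 when 1 library was left out, the direction being reversed without CRLM1_hnRNPK replicate 1. Same-numbered libraries deviated with a correlation of -0.071 to 0.033, so the numbers do not pair the libraries. The replicate block gave 42, 67, 61 and 51 members in the first 4 comparisons and 0 in the others. Members with few reads, such as NDUFA4L2, COX6B2 and NDUFA11, are limited by depth.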
